A study of Mus musculus with 8 samples.

Results

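The genes described here are 36 mouse genes of DNA replication and of the passage from G1 into S phase, chosen by name, and all 36 were found among the 14042 genes of the deposited tables. RNA sequencing gave 8 libraries, in 4 groups of 2. Naive WT and naive KO are CD4 T cells sorted as CD62L high and CD44 low, from wild-type mice and from C5aR1-/- mice, which lack a receptor for the complement fragment C5a. TFH WT and TFH KO are donor CD4 cells sorted as PD1 high and CXCR5+, markers by which T follicular helper cells are recognised. They were taken from spleens of (bxd)F1 recipients at day 7, after an injection of 10000000 donor spleen cells depleted of CD8 cells, with WT or C5aR1-/- donors. The recipients themselves are not described as lacking C5aR1, and the labels state neither ages nor whether both libraries of a group had different donor animals. The spread on which p-values rest may thus be technical. The question put to these genes is whether the machinery of DNA synthesis differed between sorted TFH cells and naive cells, and between donors with and without C5aR1.

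DNA replication begins in G1, when Cdc6 and Cdt1 load the hexameric MCM helicase onto origins. At the start of S phase the helicase is activated by Cdc45 and the GINS complex, polymerases begin copying, and the sliding clamp PCNA holds them on the template. Many of the genes involved are targets of E2F transcription factors, which are held back by the retinoblastoma family in resting cells and released when cyclin-dependent kinases phosphorylate it. Naive T cells rest outside the cycle, while T cells that have met antigen, including early TFH cells, divide rapidly.

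Values are deposited log2 values, and a difference is that of 2 group means on the same scale, given ± its moderated standard error (SE) with n = 2 libraries per group. A gene was called, and is said to have risen or fallen, when limma gave an adjusted p below 0.05, with Benjamini-Hochberg adjustment over all 14042 genes. Whether the values were scaled by gene length is not known, so levels are compared within a gene and not between genes. The T cell genes Cd3e (13.88 to 13.99 under the naive label, 13.75 to 13.93 under the TFH label) and Cd4 (15.48 to 15.63 and 15.53 to 15.69) were high in all 8 libraries. T cell genes were not all level between labels. Of 11 measured, 1 rose and 2 fell in WT, against 12.6% and 13.7% of all genes. In KO 0 rose and 4 fell, against 9.12% and 10.4%. Thy1 was among those that fell, at -0.99 ± 0.14 in WT and -0.87 ± 0.14 in KO (adjusted p = 6.14e-04 and 0.00179). Il21, the cytokine of TFH cells, ranged over 9.58 to 10.40 in the TFH-labelled libraries and over 7.31 to 8.19 in the naive-labelled ones. Pdcd1, which encodes PD1, was at 11.84 and 10.80 in naive WT, 10.96 and 11.97 in naive KO, 12.85 and 12.52 in TFH WT and 11.88 and 12.21 in TFH KO, so that its KO groups overlapped. Bcl6, the transcription factor of TFH cells, rose in WT by 0.73 ± 0.19 (adjusted p = 0.0253) and was at 0.62 ± 0.19 in KO (adjusted p = 0.0579). Cxcr5 was no higher in TFH-labelled (10.85 to 11.56) than in naive-labelled libraries (11.56 to 12.45), and Cd44 was lower there, so groups are named by their labels. C5ar1 was not analysed here. With 2 libraries against 2, an exact permutation test of 1 gene cannot go below p = 0.33 (two-sided), so tests rest on limma's spread shared over genes.

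Individual libraries stood apart in ways that bear on these genes. In TFH KO replicate 1 the median of the 36 genes, as a deviation from each gene's mean over all 8 libraries, was 0.03, against 0.48 in TFH KO replicate 2 and 0.45 and 0.51 in the TFH WT libraries. The median of 17 B cell genes was -1.94 and 0.59 in TFH WT replicates 1 and 2 and -1.75 and 2.13 in TFH KO replicates 1 and 2, so replicate 2 of each TFH group held more B cell transcript. The medians of 18 myeloid genes and 13 CD8 and NK cell genes were higher in naive-labelled (0.17 to 2.09 and 0.45 to 0.60) than in most TFH-labelled libraries (-1.85 to 0.23 and -1.17 to -0.11), opposite to the replication genes, and their part in the results was not tested. Naive KO replicate 1 had Xist at 14.61 and the Y-linked Ddx3y at 5.67. The other 7 libraries had Xist at 4.44 to 5.56 and Ddx3y at 12.54 or above. Results that rest on these libraries are given with and without them.

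**Figure D1:**
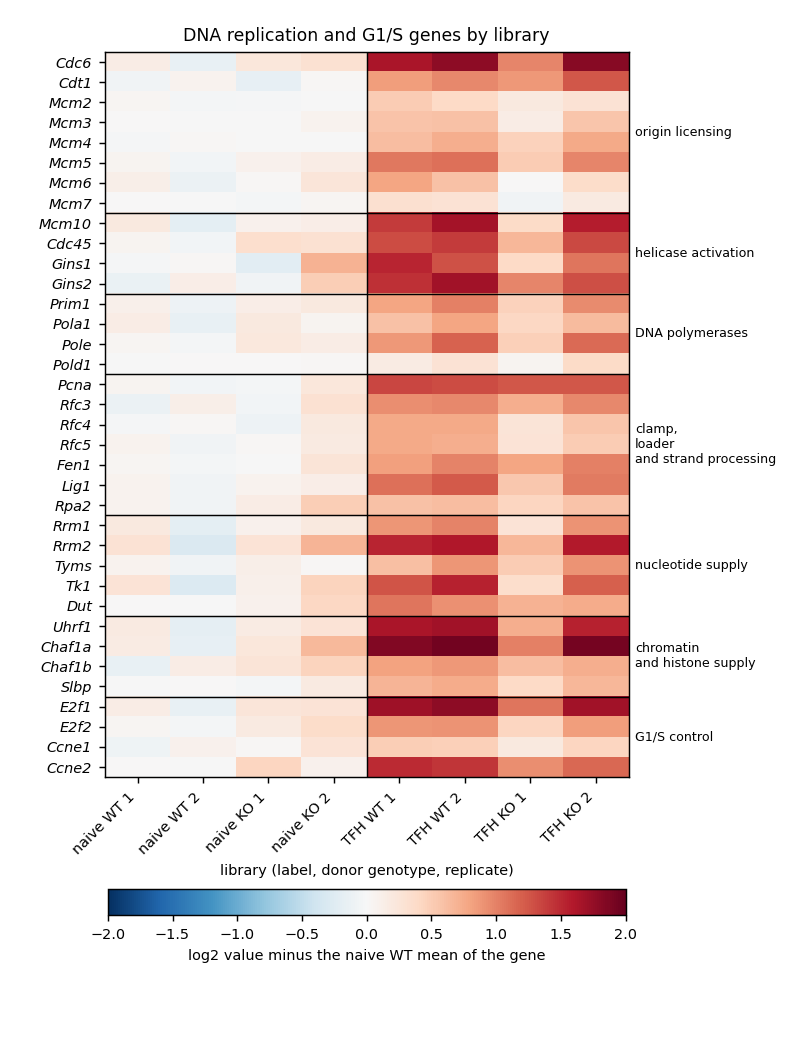
Heat map of the 36 genes (rows, grouped by role) in the 8 libraries (columns), coloured by the log2 value minus the gene's mean in naive WT, with red for higher values. The naive-labelled columns are pale, both TFH WT columns and TFH KO 2 are red throughout most rows, and TFH KO 1 lies between them.

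Many of these genes are known E2F targets, so their promoters are shown first. RefSeq promoter windows on GRCm38.p6, from 250 bases before to 50 bases after a start site, were found for 31 of the 36 genes; Ccne2, Gins1, Gins2, Mcm4 and Pole had none in the table used. The windows were searched on both strands for the E2F consensus in its 4 forms TTTCCCGC, TTTCGCGC, TTTGCCGC and TTTGGCGC, of which sites on opposite strands can overlap. A match was found in 12 of 37 windows of these genes (32.4%), belonging to 12 genes, against 744 of 32851 windows of all genes (2.26%) and 502 of 13793 windows of genes in the deposited tables (3.64%). The matches lay in 6 of the 7 origin licensing genes with a window, namely Cdc6, Cdt1, Mcm3, Mcm5, Mcm6 and Mcm7, and in Pola1, Pold1, Rfc3, Lig1, Uhrf1 and E2f2. A match describes letters and is not a measured binding site.

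The longer stretches shown come from 2 helicase subunit genes with several matches, Mcm5 and Mcm6, and from the polymerase gene Pola1, which has 1. They are 90 bases each, read 5′ to 3′ on the gene's strand, with the E2F matches in capitals. They lie upstream of the start site and outside the same gene's span in the GENCODE annotation. Overlap with other genes was not checked. Mcm5 is chr8:75109317-75109406 (plus strand), Mcm6 is chr1:128359736-128359825 (minus strand) and Pola1 is chrX:93632245-93632334 (minus strand).
Mcm5: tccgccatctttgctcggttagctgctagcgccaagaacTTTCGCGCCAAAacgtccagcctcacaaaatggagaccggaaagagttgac
Mcm6: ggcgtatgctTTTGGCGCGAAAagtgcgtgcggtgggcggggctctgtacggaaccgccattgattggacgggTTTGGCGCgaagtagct
Pola1: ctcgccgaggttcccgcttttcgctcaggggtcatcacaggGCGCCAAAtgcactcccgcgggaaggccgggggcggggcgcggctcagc
In Mcm5 a pair of matches on opposite strands overlap within 12 letters, and Mcm6 holds such a pair and another match nearer the start.

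Shorter stretches of 28 bases, in the same notation, show the match in 4 further genes that the results below describe: Cdc6 at chr11:98908003-98908030, Uhrf1 at chr17:56304118-56304145, Cdt1 at chr8:122568037-122568064 and E2f2 at chr4:136172296-136172323, all on the plus strand. By RefSeq's start sites those of Cdc6 and Uhrf1 lie upstream and those of Cdt1 and E2f2 just downstream. All but that of E2f2 overlap the span of their own gene in the GENCODE annotation.
Cdc6: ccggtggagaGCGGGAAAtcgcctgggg
Uhrf1: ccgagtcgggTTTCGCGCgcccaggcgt
Cdt1: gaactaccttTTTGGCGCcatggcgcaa
E2f2: aatttggcggcatatagTTTGGCGCtaa
None of the 5 nucleotide supply genes held a match, nor did the 2 helicase activation genes with a window. Mcm5, Mcm6 and Mcm7 all hold one, and their log2 differences between TFH WT and naive WT were 1.08, 0.69 and 0.30. Pold1, at 0.23, holds one too, while Chaf1a, at 1.88, has a window without one. Whether a match goes with the size of a difference was not tested.

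In WT, replication genes were higher in TFH-labelled than in naive-labelled libraries nearly without exception. Of the 36 genes 34 rose, none fell, and Mcm7 and Pold1 were not called, where 12.6% of all genes were called higher and 13.7% lower. All 36 differences were positive, where 49.3% of all genes had a negative one, and 35 had an unadjusted p below 0.05, against 37.8% of all genes. In each gene both TFH WT libraries lay above both naive WT libraries, an arrangement seen in 33.1% of all genes. The median difference was 0.92, against 0.007 over all genes, and single differences ran from 0.23 in Pold1 to 1.88 in Chaf1a. Fewer of the 36 genes and a smaller share of all genes were called with any 1 of the 4 libraries left out. The median difference was then 0.875 to 0.977. Fewest of the 36 were called without naive WT replicate 2, where Mcm6, Mcm10, Pola1, Rpa2, Rrm1, Rrm2, Tk1 and Ccne1 were no longer called. Of the 34, 24 were called under every one of the 12 alternatives in which they were tested.

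In KO the genes were also higher in TFH-labelled libraries, with fewer calls and a smaller median difference than in WT. There 18 rose, none fell and 18 were not called, where 9.12% of all genes were called higher and 10.4% lower (8.07% and 5.5% after centring on ribosomal protein genes, where 13 of the 36 rose). Both TFH KO libraries lay above both naive KO libraries in 29 genes, against 27.6% of all genes, and the median difference was 0.58, against -0.01 over all genes. All 36 differences were positive here too, while 51.2% of all genes had a negative one, and 27 had an unadjusted p below 0.05, against 32.6% of all genes. The 18 were all among the 34 called in WT. That count rested on single libraries. Fewer of the 36 were called without TFH KO replicate 2 or either naive KO library, and more without TFH KO replicate 1. The share of all genes called higher fell in each of these settings. The median difference was 0.30 and 0.83 without TFH KO replicate 2 or 1, and 0.49 and 0.61 without naive KO replicate 1 or 2. When replicate 2, with more B cell transcript, was dropped from TFH WT and TFH KO alike, the median difference was 0.298. The naive-labelled libraries stayed, with B cell gene medians of 0.38 and -0.51 in WT and 0.64 and 0.18 in KO. These lay above the medians of TFH WT replicate 1 (-1.94) and TFH KO replicate 1 (-1.75), so B cell transcript was not levelled between the labels. Cdt1, Pcna and Fen1 were the ones among the 18 that were called under all 12 alternatives. Across the 36 genes, which are not independent replicates, differences in WT and KO correlated at r = 0.787 (Pearson) and rho = 0.816 (Spearman); the 2 comparisons share no library.

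**Figure D2:**
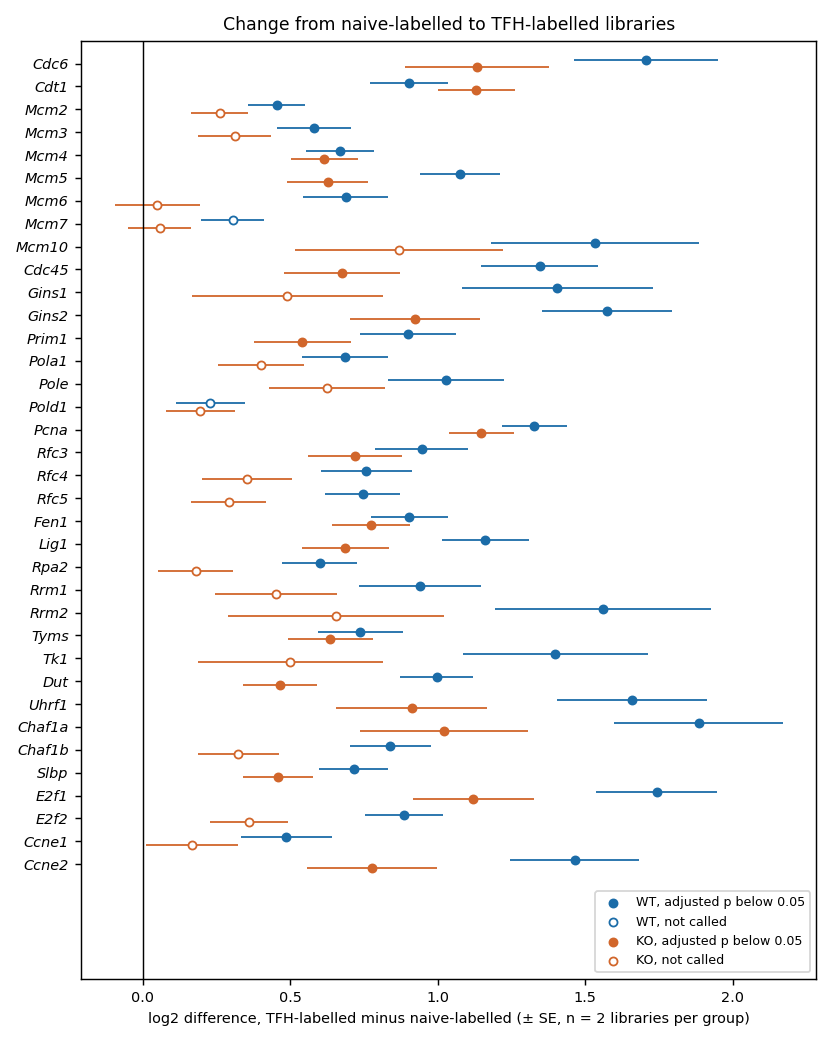
Log2 difference between TFH-labelled and naive-labelled libraries (x axis, ± SE, n = 2 libraries per group) for each of the 36 genes (y axis), in WT (blue) and KO (orange), with filled points for an adjusted p below 0.05. The WT point lies to the right of the KO point in 35 genes, Cdt1 being the exception.

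Origin licensing is done by Cdc6 and Cdt1, which load the helicase, and by the 6 subunits Mcm2 to Mcm7 that form it. In WT 7 of these 8 genes rose, and in KO 4 did. Cdc6 was at 8.16 and 7.87 in naive WT, 8.24 and 8.31 in naive KO, 9.64 and 9.80 in TFH WT and 8.99 and 9.83 in TFH KO. Both TFH WT libraries and TFH KO replicate 2 stood close together, with TFH KO replicate 1 between them and the naive libraries. Cdc6 rose by 1.71 ± 0.24 in WT (adjusted p = 7.00e-04), a 3.26-fold difference, and by 1.13 ± 0.24 in KO (adjusted p = 0.00916). Cdt1 stood at 11.05 and 11.18 in naive WT, 10.96 and 11.13 in naive KO, 11.95 and 12.08 in TFH WT and 11.99 and 12.36 in TFH KO. It is the gene of the 36 whose rise was larger in KO, at 1.13 ± 0.13 (adjusted p = 1.56e-04), than in WT, at 0.90 ± 0.13 (adjusted p = 5.40e-04), and its TFH groups overlapped.

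Values varied among the helicase subunits, which act together as 1 ring. Mcm5 had the largest difference in WT, going from 11.72 and 11.61 in naive WT to 12.72 and 12.76 in TFH WT and from 11.74 and 11.82 in naive KO to 12.17 and 12.64 in TFH KO. It rose by 1.08 ± 0.14 in WT (adjusted p = 2.54e-04) and by 0.63 ± 0.14 in KO (adjusted p = 0.00813). Mcm4 rose by similar amounts in both genotypes, 0.67 ± 0.11 and 0.62 ± 0.11. Mcm2 and Mcm3 rose in WT by 0.45 ± 0.10 and 0.58 ± 0.12, and were not called in KO at 0.26 ± 0.10 and 0.31 ± 0.12. Mcm6 stood at 12.31 and 12.07 in naive WT, 12.21 and 12.43 in naive KO, 12.98 and 12.77 in TFH WT and 12.20 and 12.55 in TFH KO. The TFH KO libraries thus lay on either side of naive KO replicate 2, while both TFH WT libraries were above all 4 naive-labelled ones, and Mcm6 rose by 0.69 ± 0.14 in WT (adjusted p = 0.00535) and was not called in KO, at 0.05 ± 0.14 (adjusted p = 0.855). Mcm7 was at 12.25 and 12.24 in naive WT, 12.20 and 12.28 in naive KO, 12.57 and 12.53 in TFH WT and 12.18 and 12.42 in TFH KO. It was called in neither genotype, at 0.30 ± 0.11 in WT (adjusted p = 0.0535) and 0.06 ± 0.11 in KO, and Mcm7 was called in WT in 4 of the 12 alternatives. Its exons overlap those of Ap4m1 and Cops6 on the opposite strand. Of the 36 genes 12 share exon sequence with a gene on the opposite strand, 10 of them with a protein-coding one, and since the strand of the counting is not given in the sources used here, reads of such pairs cannot be told apart.

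Helicase activation was the role with the largest median difference of the 7 roles in both genotypes, 1.47 in WT and 0.77 in KO. All 4 genes rose in WT and 2, Cdc45 and Gins2, rose in KO. Gins2, which encodes a subunit of the GINS complex, stood at 7.55 and 7.81 in naive WT, 7.61 and 8.18 in naive KO, 9.15 and 9.36 in TFH WT and 8.66 and 8.98 in TFH KO. Its TFH and naive groups did not overlap in either genotype, and Gins2 rose by 1.57 ± 0.22 in WT (adjusted p = 4.27e-04) and by 0.92 ± 0.22 in KO (adjusted p = 0.013). Cdc45, the other helicase partner, rose by 1.35 ± 0.20 and 0.67 ± 0.20, and the KO call was absent in 7 of 12 alternatives. Mcm10, an initiation factor that is not part of the MCM ring despite its name, was at 8.20 and 7.82 in naive WT, 8.09 and 8.15 in naive KO, 9.41 and 9.67 in TFH WT and 8.40 and 9.58 in TFH KO. TFH KO replicate 1 lay close to the naive-labelled libraries and replicate 2 with TFH WT, the widest gap between these 2 libraries of any of the 36 genes, 1.18. Mcm10 rose in WT by 1.53 ± 0.35 (adjusted p = 0.0164) and was not called in KO, at 0.87 ± 0.35 (adjusted p = 0.134). Gins1 rose in WT by 1.40 ± 0.32 and was at 0.49 ± 0.32 in KO, where the naive KO libraries, 6.11 and 7.02, were themselves far apart.

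Of the 4 polymerase genes, 3 rose in WT and 1 in KO. Prim1, the primase subunit that makes the RNA primer, stood at 9.84 and 9.65 in naive WT, 9.87 and 9.95 in naive KO, 10.54 and 10.75 in TFH WT and 10.21 and 10.69 in TFH KO. Groups did not overlap in either genotype, and Prim1 rose by 0.90 ± 0.16 in WT (adjusted p = 0.00214) and by 0.54 ± 0.16 in KO (adjusted p = 0.0378), a call absent in 8 of 12 alternatives. Pole, the catalytic subunit of the leading-strand polymerase, rose by 1.03 ± 0.20 in WT and was at 0.63 ± 0.20 in KO (adjusted p = 0.0526). Pola1, which extends the primer, rose by 0.69 ± 0.15 and was at 0.40 ± 0.15 in KO. Pold1, the catalytic subunit of the lagging-strand polymerase, was at 11.75 and 11.78 in naive WT, 11.78 and 11.79 in naive KO, 11.93 and 12.06 in TFH WT and 11.82 and 12.14 in TFH KO. Its libraries spanned the narrowest range of the 4, and Pold1 was called in neither genotype, at 0.23 ± 0.12 in WT (adjusted p = 0.176) and 0.20 ± 0.12 in KO (adjusted p = 0.278).

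All 7 genes of the clamp, its loader and strand processing rose in WT, and 4 rose in KO. Pcna, which encodes the clamp, was at 13.14 and 13.04 in naive WT, 13.05 and 13.31 in naive KO, 14.43 and 14.40 in TFH WT and 14.33 and 14.32 in TFH KO. The 4 TFH-labelled libraries lay within 0.10 of one another, and the lowest of them was 1.01 above the highest naive-labelled library. Pcna rose by 1.33 ± 0.11 in WT (adjusted p = 1.10e-05), a 2.51-fold difference, and by 1.15 ± 0.11 in KO (adjusted p = 3.80e-05), 2.21-fold. The annotation lists the processed copies Pcna-ps1 and Pcna-ps2, which could share its reads. Pcna had the smallest p of the 36 genes in both genotypes, and unlike most of them it was as high in TFH KO replicate 1 as in replicate 2. Fen1, the flap endonuclease that trims Okazaki fragments, likewise rose by 0.90 ± 0.13 and 0.77 ± 0.13. Lig1, the ligase that seals them, stood at 10.74 and 10.59 in naive WT, 10.73 and 10.80 in naive KO, 11.76 and 11.89 in TFH WT and 11.21 and 11.70 in TFH KO. It rose by 1.16 ± 0.15 in WT and 0.69 ± 0.15 in KO; its gene lies on chromosome 7 and its exons overlap Zswim9 on the opposite strand. Among the clamp loader genes Rfc3 rose in both genotypes, by 0.94 ± 0.16 and 0.72 ± 0.16. Rfc4 and Rfc5 rose in WT by 0.76 ± 0.15 and 0.74 ± 0.13 and were not called in KO at 0.35 ± 0.15 and 0.29 ± 0.13. Rpa2, a subunit of the single-strand binding complex, rose by 0.60 ± 0.13 in WT and was at 0.18 ± 0.13 in KO, where naive KO replicate 2 (11.20) was above TFH KO replicate 1 (11.14).

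All 5 nucleotide supply genes rose in WT, and in KO Tyms and Dut rose while Rrm1, Rrm2 and Tk1 were not called. Rrm2, the S phase subunit of ribonucleotide reductase, was at 10.29 and 9.70 in naive WT, 10.26 and 10.67 in naive KO, 11.52 and 11.59 in TFH WT and 10.66 and 11.58 in TFH KO. TFH KO replicate 1 lay at the level of the higher naive KO library and replicate 2 at that of TFH WT. Rrm2 rose by 1.56 ± 0.37 in WT (adjusted p = 0.0318) and was at 0.66 ± 0.37 in KO (adjusted p = 0.295). Rrm1, the large subunit, stood at 11.51 and 11.13 in naive WT, 11.40 and 11.52 in naive KO, 12.21 and 12.31 in TFH WT and 11.60 and 12.22 in TFH KO, and rose by 0.94 ± 0.21 in WT (adjusted p = 0.0134), with 0.45 ± 0.21 in KO not called (adjusted p = 0.179). Tk1, the thymidine salvage kinase of S phase, was at 9.66 and 9.11 in naive WT, 9.49 and 9.82 in naive KO, 10.64 and 10.92 in TFH WT and 9.74 and 10.57 in TFH KO. It rose by 1.40 ± 0.31 in WT (adjusted p = 0.0186) and was at 0.50 ± 0.31 in KO (adjusted p = 0.333), again with only TFH KO replicate 2 near the WT libraries. The WT calls of Rrm1, Rrm2 and Tk1 each ended without naive WT replicate 2 or either TFH WT library, and over all 12 alternatives their lowest differences were 0.75, 1.26 and 1.12.

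Tyms and Dut were the nucleotide genes called in both genotypes. Tyms, thymidylate synthase, was at 10.57 and 10.43 in naive WT, 10.61 and 10.51 in naive KO, 11.09 and 11.37 in TFH WT and 11.01 and 11.39 in TFH KO. It rose by 0.74 ± 0.14 in WT (adjusted p = 0.00335) and 0.63 ± 0.14 in KO (adjusted p = 0.00999), and the annotation lists a processed copy, Tyms-ps, that could share its reads. Dut, the dUTPase that keeps uracil out of DNA, stood at 10.51 and 10.48 in naive WT, 10.58 and 10.91 in naive KO, 11.57 and 11.41 in TFH WT and 11.19 and 11.23 in TFH KO. The TFH KO libraries were within 0.04 of each other and below both TFH WT libraries, with rises of 0.995 ± 0.12 in WT (adjusted p = 2.13e-04) and 0.46 ± 0.12 in KO (adjusted p = 0.0222).

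The chromatin genes included the largest change of the 36. All 4 rose in WT, and Uhrf1, Chaf1a and Slbp rose in KO. Chaf1a, the large subunit of the assembly factor that deposits histones behind the fork, was at 8.73 and 8.41 in naive WT, 8.80 and 9.21 in naive KO, 10.41 and 10.49 in TFH WT and 9.58 and 10.48 in TFH KO. It rose by 1.88 ± 0.29 in WT (adjusted p = 0.0024), a 3.69-fold difference, and by 1.02 ± 0.29 in KO (adjusted p = 0.0417). Its partner Chaf1b stood at 9.57 and 9.87 in naive WT, 9.97 and 10.16 in naive KO, 10.52 and 10.60 in TFH WT and 10.34 and 10.45 in TFH KO. Chaf1b rose by 0.84 ± 0.14 in WT (adjusted p = 0.0011) and was not called in KO at 0.32 ± 0.14 (adjusted p = 0.124), where both naive KO libraries were above both naive WT libraries. Uhrf1, which guides maintenance methylation to new DNA, was at 10.22 and 9.85 in naive WT, 10.20 and 10.31 in naive KO, 11.67 and 11.72 in TFH WT and 10.76 and 11.57 in TFH KO. It rose by 1.66 ± 0.25 and by 0.91 ± 0.25, the latter at an adjusted p of 0.0489. Slbp, which binds the stem loop of histone mRNA, rose by 0.71 ± 0.12 and 0.46 ± 0.12.

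Of the G1/S regulators, all 4 rose in WT and E2f1 and Ccne2 rose in KO. E2f1, an activator of the S phase genes, was at 8.28 and 7.97 in naive WT, 8.36 and 8.41 in naive KO, 9.82 and 9.92 in TFH WT and 9.19 and 9.81 in TFH KO. It rose by 1.74 ± 0.21 in WT (adjusted p = 1.39e-04), a 3.35-fold difference, and by 1.12 ± 0.21 in KO (adjusted p = 0.00298). E2f2, a close relative, stood at 10.97 and 10.89 in naive WT, 11.11 and 11.31 in naive KO, 11.81 and 11.83 in TFH WT and 11.37 and 11.77 in TFH KO. All 4 TFH-labelled libraries exceeded all 4 naive-labelled ones, by little in TFH KO replicate 1, and E2f2 rose by 0.89 ± 0.13 in WT (adjusted p = 6.36e-04) but was not called in KO at 0.36 ± 0.13 (adjusted p = 0.0785). The cyclin E genes encode partners of Cdk2. Ccne2 was at 6.46 and 6.44 in naive WT, 6.88 and 6.54 in naive KO, 7.94 and 7.88 in TFH WT and 7.37 and 7.60 in TFH KO, with rises of 1.46 ± 0.22 (adjusted p = 6.56e-04) and 0.78 ± 0.22 (adjusted p = 0.0289). Ccne1 was at 9.15 and 9.33 in naive WT, 9.26 and 9.52 in naive KO, 9.73 and 9.72 in TFH WT and 9.43 and 9.67 in TFH KO, with a rise of 0.49 ± 0.15 in WT (adjusted p = 0.0374), a call absent in 6 of 12 alternatives, and was not called in KO, at 0.17 ± 0.15 (adjusted p = 0.509).

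Whether the TFH minus naive difference was the same in WT and KO was tested directly as an interaction of genotype and label, and limma called none of the 36 genes. The difference was lower in KO in 35 of 36 genes, an order seen in 52.5% of all genes, by a median of -0.45 for KO minus WT. At an unadjusted p below 0.05 there were 10 of the 36, against 4.37% of all genes, and of all genes 2 were called (0.00712% in each direction). Mcm6 had the smallest, at -0.64 ± 0.20 (unadjusted p = 0.00941, adjusted p = 0.997 by limma). The next 4 were Dut at -0.53 ± 0.18, E2f2 at -0.52 ± 0.19, Chaf1b at -0.51 ± 0.19 and Rfc5 at -0.45 ± 0.18, each with the same adjusted p. Calls seen in WT and not in KO are therefore not shown to differ between genotypes. The median of the interaction was -0.21 without TFH KO replicate 1, -0.59 without TFH KO replicate 2 and -0.52 without naive KO replicate 1. The count at an unadjusted p below 0.05 moved widely. Leaving out replicate 2 of TFH KO raised it, and leaving out any other single library lowered it. It was 2 after centring on ribosomal protein genes, 6 with no mean-variance trend and 21 with adjustment for the B cell level. The share of all genes below that level was not counted in these settings.

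Among TFH-labelled libraries alone, 35 of 36 genes were lower in KO than in WT and none was called, where no gene of the 14042 was (0% in each direction). The median difference was -0.27, against 0.001 over all genes, and 49.7% of all genes had a negative difference. Both TFH KO libraries lay below both TFH WT libraries in 21 genes and above them in none, each arrangement occurring in 16.5% of all genes. Unadjusted p-values were below 0.05 in 7 genes, against 3.6% of all genes. Mcm6 had the smallest, with 12.98 and 12.77 in TFH WT and 12.20 and 12.55 in TFH KO, a difference of -0.50 ± 0.14 (unadjusted p = 0.00515, adjusted p = 1 by limma). Next were Rfc5 at -0.35 ± 0.13, Lig1 at -0.37 ± 0.15, Mcm5 at -0.33 ± 0.14 and Mcm7 at -0.25 ± 0.11. Cdt1 was the gene with a positive difference, 0.16 ± 0.13. The smallest differences were those of Fen1 at -0.01 ± 0.13, Pold1 at -0.01 ± 0.12 and Tyms at -0.04 ± 0.14.

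The size of that difference rested on 1 library. Without TFH KO replicate 1 the median was -0.05, with 24 of 36 genes negative, and without TFH KO replicate 2 it was -0.46, with all 36 negative; none was called either way. Without TFH KO replicate 2 more than the 7 genes had an unadjusted p below 0.05, and without any other TFH-labelled library fewer had. The 7 became 1 after centring on ribosomal protein genes, 4 with no mean-variance trend and 20 with adjustment for the B cell level. The share of all genes below that level was not counted in these settings. TFH KO replicate 1 was the lowest of the 4 TFH-labelled libraries in 34 of the 36 genes, while over all genes it was the lowest in 20.2%. Its median deviation of the 36 genes was 0.03, against 0.48 in TFH KO replicate 2 and -0.35 and -0.22 in naive KO. TFH KO replicate 2 exceeded replicate 1 in 35 genes, by a median of 0.36, where the TFH WT libraries differed by a median of 0.07.

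The gap between the TFH KO libraries was uneven across the genes. It was 1.18 in Mcm10, 0.93 in Rrm2, 0.90 in Chaf1a, 0.84 in Cdc6, 0.83 in Tk1 and 0.81 in Uhrf1. In contrast it was -0.01 in Pcna, 0.04 in Dut, 0.09 in Mcm2, 0.11 in Chaf1b and 0.14 in Rpa2. Genes with a wide gap therefore sat next to genes with none within the same role, as in Chaf1a and Chaf1b or Rrm2 and Dut. In TFH KO replicate 1, Pcna stood 1.15 and Cdt1 0.95 above the naive KO mean, while Mcm6 and Mcm7 were below it, at -0.13 and -0.07.

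**Figure D3:**
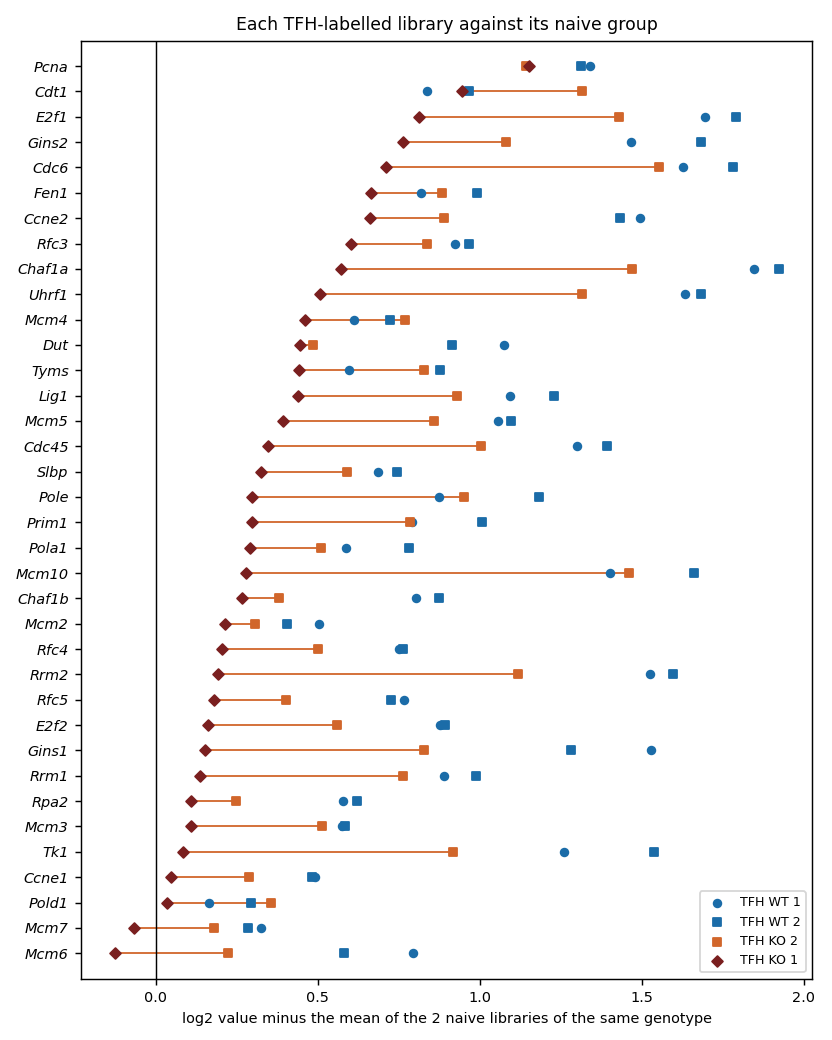
Each of the 4 TFH-labelled libraries as its log2 value minus the mean of the 2 naive libraries of the same genotype (x axis), for the 36 genes (y axis, ordered by TFH KO 1); an orange line joins the TFH KO libraries. TFH KO 1 is the leftmost point in most rows, from -0.13 in Mcm6 to 1.15 in Pcna, and the line is longest in Mcm10.

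B cell genes and replication genes ordered the TFH-labelled libraries differently, but within each pair replicate 2 was mostly the higher for both. All 17 B cell genes were higher in replicate 2 in both pairs. Of the 36 replication genes 27 were in TFH WT and 35 in TFH KO, against 43.5% and 41.6% of all genes. TFH WT replicate 1 and TFH KO replicate 1 both had low B cell genes, with medians of -1.94 and -1.75, and the median of the replication genes was 0.45 in the first and 0.03 in the second. After the fit was adjusted for each library's B cell level, the median KO minus WT difference in TFH-labelled libraries was -0.33. The calls were 36 higher in WT and 24 in KO. The shares of all genes called higher were then 14.7% in WT and 12% in KO, also above those without the adjustment. Among plasma cell genes, Mzb1 was 8.92 and 10.45 in TFH WT and 6.71 and 11.24 in TFH KO. Jchain was 12.09 and 13.30, and 10.24 and 13.70. The median of 10 germinal centre B and plasma cell genes was 0.17, 0.40, 0.04 and 0.80 in the same order of libraries and -0.66 to -0.05 in the naive-labelled ones. That list was thus lowest in TFH KO replicate 1 among TFH-labelled libraries and lower still in all 4 naive-labelled ones. The replication genes likewise were lowest there and lower still in naive-labelled libraries. This order was not particular to B lineage genes. The median of 7 genes of the TFH sort and program was 0.39 and 0.36 in TFH WT and -0.002 and 0.15 in TFH KO. It was -0.55 to 0.07 in naive-labelled libraries. In each genotype 3 of the 10 germinal centre B and plasma cell genes rose, where 12.6% of all genes were called higher in WT and 9.12% in KO. Neither Mzb1 nor Jchain was among them in either genotype. Mzb1 had the widest gap of the 10 genes in both TFH pairs. The median gap, replicate 2 minus replicate 1, was 0.13 in TFH WT, with 6 of 10 genes positive. In TFH KO it was 0.56, with 8 of 10 positive. The part of dividing B lineage cells in the levels of the replication genes was not tested. In sorted bulk RNA, fewer cells in S phase and less transcript per cell cannot be told apart.

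Among naive-labelled libraries, 32 of 36 genes were higher in KO than in WT, by a median of 0.14 against 0.01 over all genes, where 45.6% of all genes were lower, and none was called, where 5 genes were called higher and 5 lower of all (0.0356% each). Both naive KO libraries lay above both naive WT libraries in 13 genes, against 15.2% of all genes, and below them in none, against 11.2%. Unadjusted p-values were below 0.05 in 2 genes, against 2.53% of all genes. These were Chaf1b, with 9.57 and 9.87 in naive WT and 9.97 and 10.16 in naive KO, a difference of 0.35 ± 0.14 (unadjusted p = 0.0268, adjusted p = 1 by limma), and Rpa2 at 0.32 ± 0.13. The next were E2f2 at 0.27 ± 0.13, Dut at 0.25 ± 0.12 and Cdc45 at 0.32 ± 0.20. Naive KO replicate 2 was the higher of the pair in 30 genes, by a median of 0.13. Without it the median difference was 0.08, with 24 genes positive, and without naive KO replicate 1, the library with opposite Xist and Ddx3y levels, it was 0.21, with 34 positive. Without naive WT replicate 1 it was 0.21, with 33 positive, and without naive WT replicate 2, the lower of its pair in 26 genes, it was 0.07, with 28 positive.

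**Figure D4:**
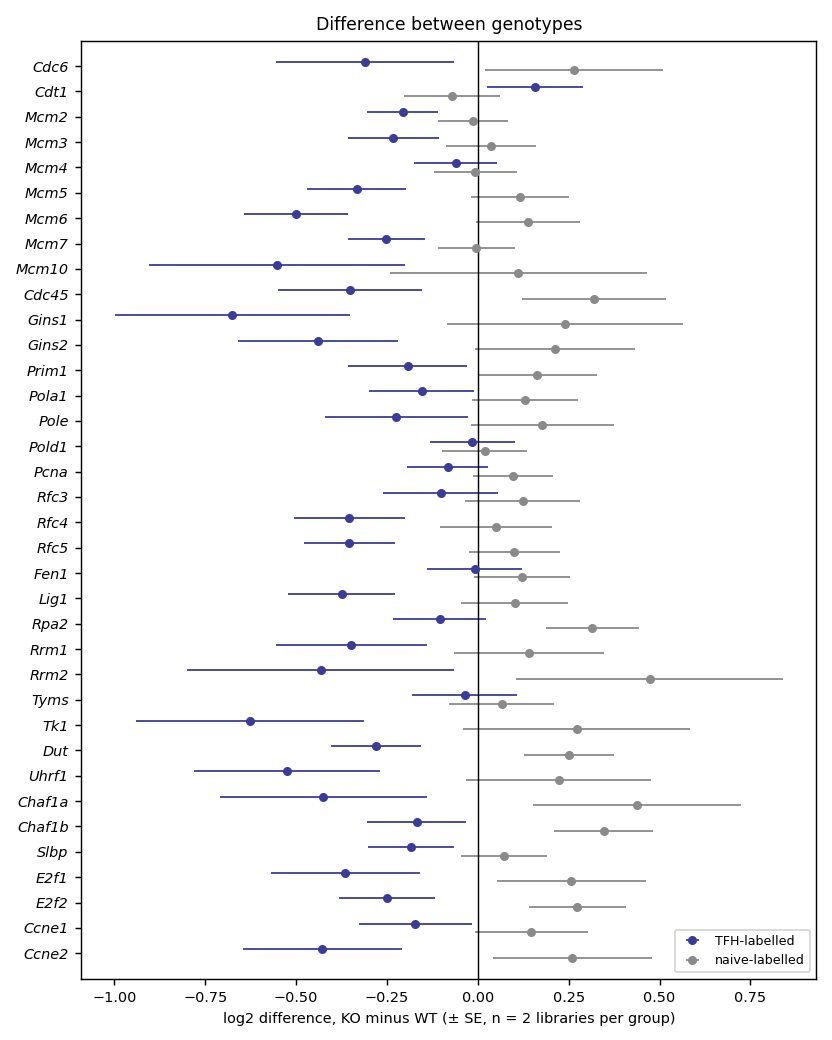
Log2 difference between KO and WT (x axis, ± SE, n = 2 libraries per group) for each of the 36 genes (y axis) in TFH-labelled (dark blue) and naive-labelled (grey) libraries. Dark points lie left of 0 in 35 genes and grey points right of 0 in 32, and none was called.

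Other genes of the pathway are given by counts, to be read against the 12.6% of all genes called higher and 13.7% called lower in WT, and 9.12% and 10.4% in KO. Of 39 further replication genes 16 rose and 3 fell in WT, with a median of 0.31, and 10 rose and 3 fell in KO, with a median of 0.22, so the share that fell was below that of all genes in both. The same genes fell in both genotypes. They were Mcmbp at -0.50 ± 0.11 in WT and -0.70 ± 0.11 in KO, Supt16 at -0.35 ± 0.10 and -0.46 ± 0.10, and Rnaseh2a at -0.40 ± 0.12 and -0.45 ± 0.12. Clspn, the checkpoint adaptor claspin, rose by 1.79 ± 0.15 and 1.38 ± 0.15, and Dbf4, which activates the Cdc7 kinase at origins, by 1.43 ± 0.13 and 1.01 ± 0.13. Gmnn, encoding geminin, the inhibitor of Cdt1, rose by 1.12 ± 0.16 and 0.57 ± 0.16, and Orc6, a subunit of the origin recognition complex, by 0.91 ± 0.13 and 0.79 ± 0.13. Dbf4 and Orc6 had TFH KO replicate 1 (11.73 and 10.30) close to replicate 2 (11.59 and 10.43), while Clspn was at 10.34 and 10.60.

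Further G1/S control genes included inhibitors as well as activators. Of 31 measured, 10 rose and 2 fell in WT, and 4 rose and 4 fell in KO, where the shares were near those of all genes (9.12% higher and 10.4% lower). The CDK inhibitor gene Cdkn1a, which encodes p21, was at 6.88 and 6.01 in naive WT, 5.93 and 7.12 in naive KO, 8.72 and 8.79 in TFH WT and 8.40 and 8.77 in TFH KO. It rose by 2.31 ± 0.42 in WT (adjusted p = 0.00619) and 2.06 ± 0.42 in KO (adjusted p = 0.0134). Cdkn2c rose in WT by 0.72 ± 0.21 and was at 0.23 ± 0.21 in KO, while Cdkn1b, encoding p27, was called in neither at 0.06 ± 0.10 and 0.16 ± 0.10. Rbl2, the pocket protein p130 of resting cells, fell by 0.66 in WT and 0.57 in KO on the log2 scale (adjusted p = 8.39e-04 and 0.00277), whereas Rb1 was at 0.12 ± 0.14 and 0.11 ± 0.14. Tfdp1, the dimer partner of E2F, rose by 0.84 ± 0.11 and 0.44 ± 0.11, Mybl2 by 1.49 ± 0.21 and 0.79 ± 0.21, and the phosphatase gene Cdc25a rose in WT by 0.60 ± 0.11 and was at 0.11 ± 0.11 in KO. Cdk6 rose in WT by 1.20 ± 0.25 and was at 0.44 ± 0.25 in KO. Cdk2 at 0.11 ± 0.12 and 0.03 ± 0.12 and Cdk4 at 0.19 ± 0.11 and -0.04 ± 0.11 were called in neither. Of the D cyclin genes, Ccnd1 fell in WT, at -1.32 ± 0.32 (adjusted p = 0.0113), and was at -0.61 ± 0.32 in KO. Ccnd2 fell in KO, at -0.78 ± 0.15 (adjusted p = 0.00469), and was at -0.38 ± 0.15 in WT. Ccnd3 was not called at -0.26 ± 0.10 and -0.29 ± 0.10.

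Of 13 further nucleotide genes, 5 rose and 2 fell in WT, and 1 rose and 2 fell in KO; the 2 that fell in WT are a share near the 13.7% of all genes, and the 1 that rose in KO one near 9.12%. Rrm2b, the reductase subunit used outside S phase, was at 11.04 and 11.20 in naive WT, 11.18 and 11.04 in naive KO, 10.28 and 10.16 in TFH WT and 10.53 and 10.32 in TFH KO. It fell in both genotypes, at -0.90 ± 0.12 in WT and -0.69 ± 0.12 in KO, where Rrm2 had the positive differences given above. Tk2, the mitochondrial thymidine kinase, fell in WT at -0.68 ± 0.14 and was not called in KO at -0.21 ± 0.14. Umps, the last step of UMP synthesis, rose by 0.58 ± 0.10 and 0.31 ± 0.10.

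Of 14 further chromatin genes 7 rose and 1 fell in WT, against 12.6% and 13.7% of all genes, and 3 rose and 3 fell in KO, against 9.12% and 10.4%. Hells, a partner of DNA methylation, rose by 0.85 ± 0.12 and 0.41 ± 0.12, the histone chaperone gene Nasp by 0.75 ± 0.11 and 0.37 ± 0.11, and Mms22l by 0.80 ± 0.13 and 0.50 ± 0.13. Asf1b, which hands histones to the assembly factor, rose in WT by 1.35 ± 0.27 and was at 0.55 ± 0.27 in KO, with 9.71 in TFH KO replicate 1 and 10.58 in replicate 2. Dnmt1, the maintenance methyltransferase that Uhrf1 recruits, was not called, at -0.20 ± 0.14 and -0.36 ± 0.14. Of 16 genes of S phase checkpoint and repair 9 rose and none fell in WT, and 1 rose and 1 fell in KO, both shares below those of all genes in KO. Chek1 rose by 1.13 ± 0.18 and 0.90 ± 0.18, and the exonuclease gene Exo1 rose in WT by 1.16 ± 0.21 and was at 0.41 ± 0.21 in KO.

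Mitotic genes showed the library pattern of the replication genes with a wider spread. Of 29, 21 rose and 1 fell in WT with a median of 1.48, and 1 rose and 1 fell in KO with a median of 0.55, where 9.12% of all genes were called higher and 10.4% lower. Their median deviation was 0.54 and 0.89 in TFH WT, -0.23 and 0.81 in TFH KO, and -0.82 to -0.21 in naive-labelled libraries. TFH KO replicate 1 thus lay within the naive-labelled range for mitotic genes and above it for replication genes, whose naive range was -0.51 to -0.22. Top2a, which untangles replicated DNA, was at 11.52 and 10.98 in naive WT, 11.68 and 11.85 in naive KO, 12.68 and 13.07 in TFH WT and 11.81 and 12.92 in TFH KO and was called in neither genotype, at 1.62 ± 0.43 (adjusted p = 0.0536) and 0.60 ± 0.43. Mki67 was not called either, at 1.77 ± 0.68 and 0.80 ± 0.68. The kinase gene Aurka rose by 1.50 ± 0.20 and 0.99 ± 0.20, and Birc5, encoding survivin, rose in WT by 1.94 ± 0.33 and was at 0.75 ± 0.33 in KO.

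**Figure D5:**
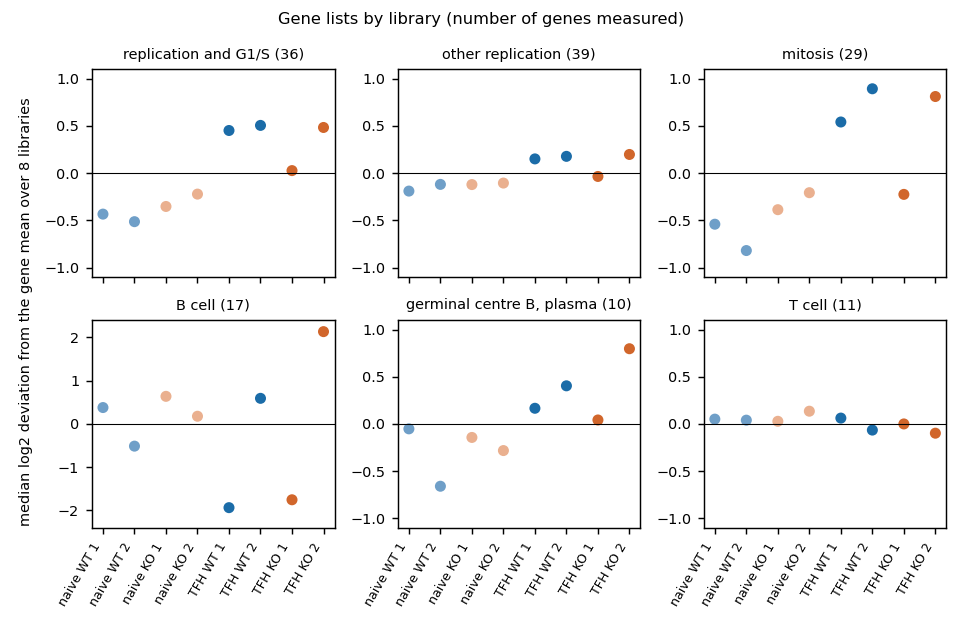
Median log2 deviation from each gene's mean over the 8 libraries (y axis, one point per library on the x axis) for the replication and G1/S genes and 5 other lists; the B cell panel has a wider axis. The replication and mitotic panels share a high TFH WT pair and TFH KO 2 with a low TFH KO 1, while the B cell panel places TFH WT 1 and TFH KO 1 together at -1.94 and -1.75, and the T cell panel stays between -0.10 and 0.14.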

How the data were processed

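RNA was extracted with an RNeasy kit and sequenced as single-end 51 base reads on an Illumina HiSeq, per the labels' protocols. BWA and mm10 are named, per the submitters' processing notes; the sources used here name no counting tool, annotation, strand setting or normalization. Log2 values for 14042 genes are what the authors deposited; they match in distribution across the 8 libraries, as after quantile normalization, and the sequencing depth is unknown, so no counting error could be given. The 36 genes and all other lists were chosen with earlier results of these data known. With limma 3.58.1 (R 4.3.3), 1 mean per group was fitted over all 8 libraries, with a mean-variance trend and robust variances, and tested on simulated data. Libraries are numbered in accession order. Named in full were the smallest-p gene of each role in WT, all nucleotide supply and G1/S genes, the uncalled WT genes, the 5 smallest p-values of the genotype comparisons, and from each other list up to 4 called genes and some preset ones, of which a few are not reported here; other values were chosen after they were seen, as were the promoters printed beside that of Mcm5. Promoter windows are RefSeq's on GRCm38.p6, positions and overlaps GENCODE's on GRCm38. Alternatives changed the trend, robust option, groups fitted, low-value filter, centring, library weights, a B cell covariate and the libraries included.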

Additional observations from a re-analysis of the deposited data

How the results depend on the processing

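In WT, 33 to 36 genes rose with both libraries of each group kept, where 9.85% to 14.7% of all genes were called higher. Dropping the lowest 25% of genes gave 33 of the 34 genes then tested. With libraries left out, fewer of the 36 and a smaller share of all genes were called. No difference turned negative under any alternative. The 18 genes that rose in KO became 12 without the mean-variance trend, where 6.96% of all genes were called higher. They became 13 with only the compared groups fitted (7.25%), 13 after centring on ribosomal protein genes (8.07%) and 24 with the B cell covariate (12%). Without the second library of both TFH groups the median difference was 0.298. Leaving out 1 library gave 5 to 24 genes in KO, with medians of 0.298 to 0.827. The median KO minus WT difference was -0.456 to -0.051 in TFH-labelled libraries and 0.070 to 0.214 in naive-labelled ones with 1 library left out, and the median of the interaction was -0.586 to -0.208; no gene of the 36 was called in these 3 comparisons under any alternative. Mcm7 ranged from -0.066 to 0.18 in KO with 1 library left out, negative without TFH KO replicate 2, and was -0.066 without the second library of both TFH groups; Mcm6, likewise not called in KO, ranged from -0.127 to 0.223 over all 12 alternatives. Where a group was left with 1 library, that library was assumed to vary like the others. No paired analysis was possible because the labels give no replicate numbers, and the numbers used here follow accession order. Depth is unknown, and the 2 libraries per group limit precision.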
